A study of Mus musculus and Canis lupus familiaris and Equus caballus with 9 samples.

Results

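A set of 10 mouse genes that encode neuronal splicing and RNA-binding factors was examined for nearby NRSF peaks: the Elavl genes Elavl2, Elavl3 and Elavl4, the Nova genes Nova1 and Nova2, the Celf genes Celf3, Celf4, Celf5 and Celf6, and Srrm4. They are 10 of 21900 annotated protein-coding genes and were picked with earlier results of these data known. They are not whole families, since Elavl1, Celf1, Celf2, Srrm1, Srrm2 and Srrm3 are not among them. NRSF (or REST) is a repressor of neuronal genes that binds DNA through zinc fingers. Its sites were mapped by ChIP-seq in mouse RAW264.7 macrophages, an established BALB/c line at passages 13 to 15, as 2 immunoprecipitated samples and 1 input sample, all without further treatment in the labels. The deposited mouse list holds 2357 peaks of 400 bp for both immunoprecipitated samples together, with no value per replicate, so no replicate error can be given. The list has positions and no peak height, so strong and weak sites cannot be told apart, and the read depth is unknown. RNA was not measured, so nothing here says whether any of the genes was expressed or silent, nor could the macrophage label be checked against marker genes.

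The Elavl proteins of neurons (HuB, HuC and HuD) bind AU-rich elements, steady their target mRNAs and influence splicing, while the related Elavl1 (HuR) is made in most cells. Nova1 and Nova2 are KH-domain proteins that set the inclusion of exons in synaptic transcripts, and the Celf proteins bind GU-rich RNA and act in splicing, translation and mRNA decay. Srrm4 (nSR100) promotes the inclusion of very short neuronal exons and is known to switch the splicing of the Rest transcript itself. NRSF binds a long element called NRSE or RE1, made of a left and a right part, and recruits corepressors that keep neuronal genes silent in other cells.

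Of the 10 genes, 9 had a peak whose midpoint lay inside the annotated span or within 10 kb of either end, the exception being Elavl4. By the same rule 7.49% of all protein-coding genes had a peak (1640 of 21900). The 9 genes lay beside 17 peaks, of which 14 were inside a span and 3 outside: 5 genes had 1 peak, Elavl3 and Celf3 had 2 each, and Celf4 and Srrm4 had 4 each. The median over the 10 genes was 1 peak, against a median of 0 over all protein-coding genes. The genes are on 8 chromosomes and no peak served 2 of them. Because the genes were picked with earlier results of these data known, their count is a description and carries no test.

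**Figure D1:**
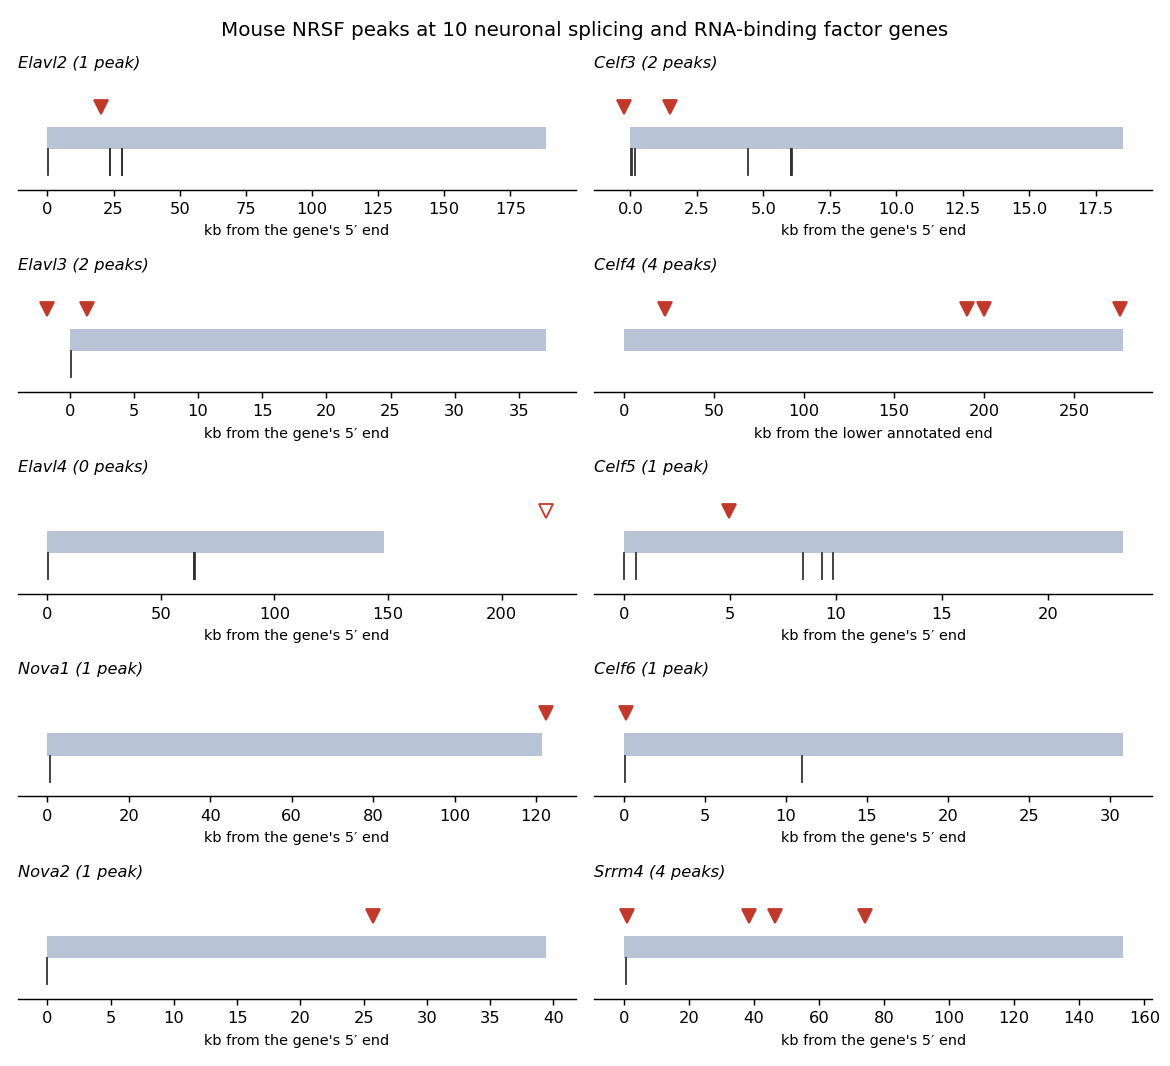
Each panel shows 1 gene as a bar drawn to its own scale, in kb from its 5′ end (for Celf4, whose strand was not used, from the lower annotated end), with annotated start sites as ticks below and NRSF peak midpoints as triangles above. The open triangle is the closest peak of Elavl4, 71.5 kb beyond the gene and outside the 10 kb reach; Celf4 and Srrm4 have 4 peaks each inside their spans.

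The start regions of 3 genes are shown because a peak covered them or ended just short of them. Each sequence runs 5′ to 3′ on the strand of the gene, from 250 bases before a listed start site to 30 bases past it (RefSeq, GRCm38.p6, the assembly that mm10 denotes), and capitals mark the bases that lie inside an NRSF peak. The window of Celf3 was read from chr3:94478045-94478344 on the plus strand, that of Celf6 from chr9:59578087-59578386 on the plus strand, and that of Srrm4 from chr5:116591768-116592067 on the minus strand, and 280 of the 300 bases of each are printed.
Celf3: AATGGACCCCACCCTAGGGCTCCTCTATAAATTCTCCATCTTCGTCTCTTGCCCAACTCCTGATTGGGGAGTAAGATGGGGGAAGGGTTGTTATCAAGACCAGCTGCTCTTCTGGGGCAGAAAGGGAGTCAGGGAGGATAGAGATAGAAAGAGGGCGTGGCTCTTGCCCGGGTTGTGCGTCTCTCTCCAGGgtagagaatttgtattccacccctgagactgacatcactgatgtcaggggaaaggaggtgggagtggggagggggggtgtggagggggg
Celf6: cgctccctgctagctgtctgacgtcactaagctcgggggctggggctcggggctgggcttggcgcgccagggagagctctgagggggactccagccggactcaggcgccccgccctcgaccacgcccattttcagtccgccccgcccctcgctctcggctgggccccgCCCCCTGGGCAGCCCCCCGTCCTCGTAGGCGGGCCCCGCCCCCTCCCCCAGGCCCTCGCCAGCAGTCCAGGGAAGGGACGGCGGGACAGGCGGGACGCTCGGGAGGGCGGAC
Srrm4: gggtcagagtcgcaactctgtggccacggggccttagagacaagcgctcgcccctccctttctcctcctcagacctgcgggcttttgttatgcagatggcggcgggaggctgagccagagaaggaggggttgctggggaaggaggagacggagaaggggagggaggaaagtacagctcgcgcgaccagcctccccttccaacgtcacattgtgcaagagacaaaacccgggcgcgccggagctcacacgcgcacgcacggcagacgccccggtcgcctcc
The peak covered 191 bases of the Celf3 window, all before the start site. In Celf6 it covered the last 132 bases of the full window and ran across the start site into the gene. The Srrm4 peak lay inside the gene and ended 73 bp short of the window, so all its bases are in lower case. The list does not say if its first base is 0 or 1, so each edge can be off by 1 base.

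The letters of the RE1 element were then searched on both strands of every 300-base start window. The letters AGCACC stood for the left part and GGACAG for the right part. The joined element was taken as the 9 letters TTCAGCACC, then any 2 bases, then GGACAG, with at most 3 mismatches over the 15 letters, and it contains both parts. The joined element was found in 1.17% of all 32851 windows and in 24 of the 145 windows that a mouse peak touched (16.6%). It was found in none of the 28 windows of 9 of the genes, of which 4 were touched by a peak, 3 of Celf3 and 1 of Celf6. That says only that those letters do not stand in these windows, which hold part of 2 of the 17 peaks. Celf6 had GGACAG at bases 252 to 257 of its window, inside the peak and right behind the start site. These letters occurred in 22.2% of all windows, in 42.8% of those that a peak touched, in 6 of the 28 and in 2 of the 4 touched by a peak. The other touched window with GGACAG was one of Celf3, where the letters lay at bases 272 to 277, outside the peak. AGCACC occurred in 16.2% of all windows, in 30.3% of those that a peak touched and in 3 of the 28, in Elavl4 and Celf5. It occurred in 0 of the 4 touched by a peak. The closest match to the joined element in the Celf3 window had 4 mismatches and lay across the edge of the peak. A match as close or closer was present in 9.91% of all windows, in 31.7% of the windows that a peak touched and in 3 of the 4 such windows here, which overlap each other in Celf3.

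Among the Elavl genes, the 2 peaks of Elavl3 stood on either side of its start and Elavl2 had 1 peak in its 5′ part, while Elavl4 had none in reach. Elavl3 (HuC, minus strand, chr9:22015005-22052146) had a peak at chr9:22050565-22050965, 1258 bp downstream of its listed start site. Its other peak, at chr9:22053680-22054080, lay 1857 bp upstream of that start and outside the span. The midpoints of the pair were 3115 bp apart. The zinc-finger gene Zfp653 also has both peaks within 10 kb, so this pair cannot be given to Elavl3 alone.

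Elavl2 (HuB, minus strand, 189 kb long) had its peak at chr4:91379495-91379895, 20.4 kb inside the gene from its 5′ end, or 10.8% of the way along. The gene has 6 listed starts, and the peak lay 3199 bp upstream of the nearest of them, between the outermost start and the inner ones. The microRNA gene Mir6402 is in reach of the same peak. Elavl4 (HuD, minus strand, 148 kb, chr4:110203737-110351939) had its closest peak at chr4:110132015-110132415, 71.5 kb beyond its 3′ end and 155 kb from its nearest listed start. In all, 19.9% of protein-coding genes had a peak closer to one of their ends than Elavl4 did, so it stood nearer to a peak than most genes without one in reach.

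Both Nova genes had 1 peak, and neither peak was near the listed start. The Nova1 peak (chr12:46696745-46697145) lay 950 bp past the 3′ end of the gene, which is 122 kb long and on the minus strand, so it was at the end of the gene farthest from its listed start, 122 kb away. No other annotated gene was within 10 kb of that peak. With the span alone counted, Nova1 had no peak. The Nova2 peak (chr7:18951405-18951805) lay inside the gene, 25.7 kb downstream of the listed start and 65.2% of the way along its 39.4 kb. A long noncoding RNA gene, Gm38952, shares this peak.

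The 4 Celf genes all had peaks, 8 in total. Celf3 and Celf6 had one at their 5′ end. The first Celf3 peak (chr3:94477835-94478235) had its midpoint 260 bp upstream of the nearest listed start and touched 3 of the 7 listed start windows. The second (chr3:94479565-94479965) lay 1299 bp downstream of a listed start and 1730 bp from the first. Riiad1, a protein-coding neighbour, is within 10 kb of both. The single Celf6 peak (chr9:59578255-59578655) had its midpoint 118 bp downstream of the nearer of the gene's 2 listed starts. It was the closest to a start among the 13 peaks of genes with listed starts, and no other gene was in reach. By distance to a gene end, 0.393% of protein-coding genes had a peak closer than Celf6 and 0.53% closer than Celf3.

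All peaks of Celf5 and Celf4 lay inside the gene, and 1 of the 5 was close to an end. Celf5 (minus strand, 23.5 kb) had 1 peak at chr10:81477555-81477955, 21.2% of the way along the gene and 3467 bp upstream of the nearest of its 5 listed starts, with Ncln, the gene of nicalin, also in reach. Celf4 (277 kb, chr18:25477620-25754520) is the longest of the 10 genes, and 2.9% of protein-coding genes are longer. Its 4 peaks lay 23.0, 191, 200 and 275 kb from the lower annotated end. The last of these, at chr18:25752735-25753135, was 1585 bp inside the upper end, and the pair in the middle was 9385 bp apart. The noncoding RNA genes Gm32825 and Gm32896 are in reach of the first and last peak, and the middle pair had no other gene in reach. Start sites of Celf4 were not used here.

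Srrm4 (minus strand, 153 kb, chr5:116439268-116592562) had 1 peak at its start and 3 deep inside the gene. The first, at chr5:116591295-116591695, was 322 bp downstream of the single listed start. The others lay 37.7, 45.9 and 73.6 kb downstream of it, the farthest 48.5% of the way along the gene, and no other annotated gene was in reach of any of the 4. The 2 peaks nearest to each other, at chr5:116553920-116554320 and chr5:116545740-116546140, were 8180 bp apart. The exons are not in the gene table used, so peaks inside a span could not be sorted into exons and introns.

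Several peaks at 1 gene were frequent in this set. Of the 10 genes, 4 had 2 or more peaks, compared with 1.01% of all protein-coding genes (221 genes). Celf4 and Srrm4 had 4 each, compared with 0.1% of all protein-coding genes with 4 or more (22 genes, with a highest count of 11). Both are long: 2.9% of protein-coding genes are longer than Celf4 and 6.47% are longer than Srrm4. The shares for several peaks were not split by gene length, and the counts were added after the data were seen. Of the 17 peaks, 8 had another peak within 10 kb, as 4 pairs in Elavl3, Celf3, Celf4 and Srrm4, whereas 11.3% of the 1521 peaks in reach of any protein-coding gene had such a neighbour. Per 100 kb of span and flanks, Celf3 had the most peaks (5.19), followed by Elavl3 (3.5), Srrm4 (2.31) and Celf5 (2.3), and Celf4, with its 277 kb, had 1.35. These densities rest on 1 to 4 peaks per gene, so neighbours in this order cannot be told apart.

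Peaks inside spans and peaks at gene edges gave different counts. With spans alone, 8 of the 10 genes had a peak, against 4.43% of protein-coding genes. Within 1 kb of an annotated end, 3 genes had one (Celf6 at 168 bp, Celf3 at 250 bp and Nova1 at 950 bp), against 1.58%, and Srrm4 at 1067 bp and Elavl3 at 1381 bp were just outside. Within 1 kb of a listed start, 3 of the 9 genes with listed starts had a peak (Celf6, Celf3 and Srrm4), against 1.35% of the 17492 protein-coding genes with listed starts. Of the 13 peaks of genes with a listed start, 6 lay within 2 kb of one, in Elavl3, Celf3, Celf6 and Srrm4. Of the same 13, 5 lay more than 10 kb from any. These counts were not made for all mouse peaks, so whether the 13 differ from peaks in general was not tested. Genes with several listed starts have more chances to be close to one.

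A long gene can hold a peak more readily than a short one, and these genes are long, with a median of 80.5 kb against 17.1 kb over all protein-coding genes. Among protein-coding genes of 10 to 30 kb, 5.95% had a peak, and both Celf3 and Celf5 did. Among those of 30 to 100 kb the share was 8.84%, and Elavl3, Nova2 and Celf6 all had one. Among those of 100 to 300 kb it was 14.6%, and 4 of the 5 genes (Elavl2, Nova1, Celf4 and Srrm4, without Elavl4) had one. In each class the share among the 10 genes was above that of all genes, on 2 to 5 genes per class.

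**Figure D2:**
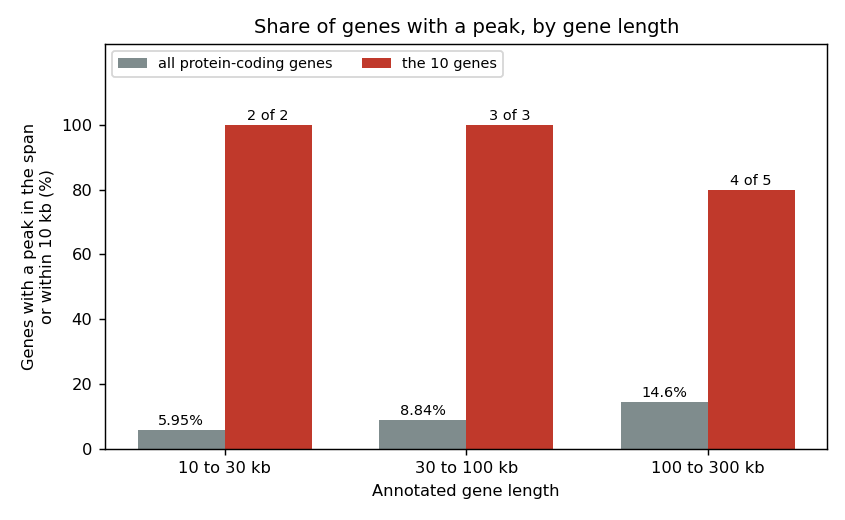
Percent of genes with an NRSF peak in the span or within 10 kb, by class of annotated gene length, for all protein-coding genes (grey) and for the 10 genes (red, with counts of 2, 3 and 5 genes per class). The grey share goes from 5.95% to 14.6% with length, and the red bars stand at 2 of 2, 3 of 3 and 4 of 5.

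A list of 17 widely expressed RNA-binding factors holds Elavl1, Celf1, Celf2, Srrm1 and Srrm2, from the families of the 10 genes, and genes of other families such as Ptbp1, Mbnl1 and Qk. Of these, 0 of 17 had a peak in reach, which allows a share of up to 17.6% for counting error alone and so includes the 7.49% of all protein-coding genes. Their closest peaks lay 49.8 kb (Srrm2) to 4980 kb (Elavl1) from a gene end. Celf2 had none within its 857 kb, although 29.8% of the 557 protein-coding genes over 300 kb had a peak. Of 25 general splicing factors, such as the SR proteins, the hnRNPs and U2af1, 0 had a peak in reach, which allows up to 12.0% and again includes the 7.49% of all protein-coding genes and the 5.95% of those of 10 to 30 kb. Neither 0 can be told from the share of all genes at this list size. The closest to a peak were Snrnp70 at 10.3 kb and Srsf4 at 11.9 kb, just past the reach. Both lists hold shorter genes than the 10, with medians of 41.5 and 13.7 kb.

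Side by side within families, the Elavl genes had peaks at Elavl2 and Elavl3 and not at Elavl1 or Elavl4. The Celf genes had peaks at Celf3 to Celf6 and not at Celf1 or Celf2. In the Srrm group, Srrm3, a neuronal relative of Srrm4, had 2 peaks, one of them (chr5:135806685-135807085) 25 bp inside a gene end. This peak lay 11221 bp from the nearest listed start of Srrm3. Srrm1 and Srrm2 had none in reach. Ptbp2, the neuronal form of the splicing repressor PTB, had 1 peak 8931 bp outside an end, and Ptbp1 and Ptbp3 had none. That peak lay 73578 bp from the nearest listed start of Ptbp2. Pcbp3, listed as neuronal, had 1 peak, and its widely expressed relatives Pcbp1 and Pcbp2 had none. Rbfox1 and Rbfox3 had peaks and Rbfox2 had none, though all are listed as neuronal. The Khdrbs, Mbnl, Msi and Fxr genes showed no split. Khdrbs2, Khdrbs3, Mbnl2, Msi1 and Fxr2, listed as neuronal, had no peak in reach. Their relatives Khdrbs1, Mbnl1, Mbnl3, Msi2 and Fxr1 had none either. These are single genes in 1 peak list, and no difference between family members was tested.

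Of 17 other RNA-binding factors listed as neuronal, 6 had a peak (35.3%, against 7.49% of all protein-coding genes), with a median of 0 peaks per gene. The median length of this list, 173 kb, was above that of the 10 genes. The list was written by hand, and whether each of its genes is particular to neurons was not checked. Besides Srrm3, those closest to a gene end were Cpeb1, a regulator of polyadenylation and translation, with a peak 2096 bp outside an end, Rbfox1, a splicing factor that binds GCAUG, at 2753 bp outside, and Pcbp3, a poly(C)-binding protein, at 3722 bp inside. The list had 16 peaks in all, of which Rbfox1 and Rbfox3 together held 10. Rbfox3, the antigen NeuN, had 7 peaks within its 422 kb and was singled out after its value was seen.

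Transcripts known to be regulated by these families had peaks at 12 of 20 genes (60.0%, against 7.49% of all protein-coding genes), with 17 peaks and a median of 1. Among those closest to an end were Grin1 at 162 bp, Snap25, a vesicle fusion protein, at 916 bp, and Cacna1b, an N-type calcium channel, at 1085 bp, all inside the gene. Genes of this list without a peak include Gphn and Agrn. The median length of the list was 109 kb, so the 7.49% is a share over mostly shorter genes. Of its 11 genes over 100 kb, 8 had a peak, compared with 439 of all 2429 protein-coding genes over 100 kb. The list was written from general knowledge, holds genes already known as NRSF targets, and is not independent of that knowledge.

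**Figure D3:**
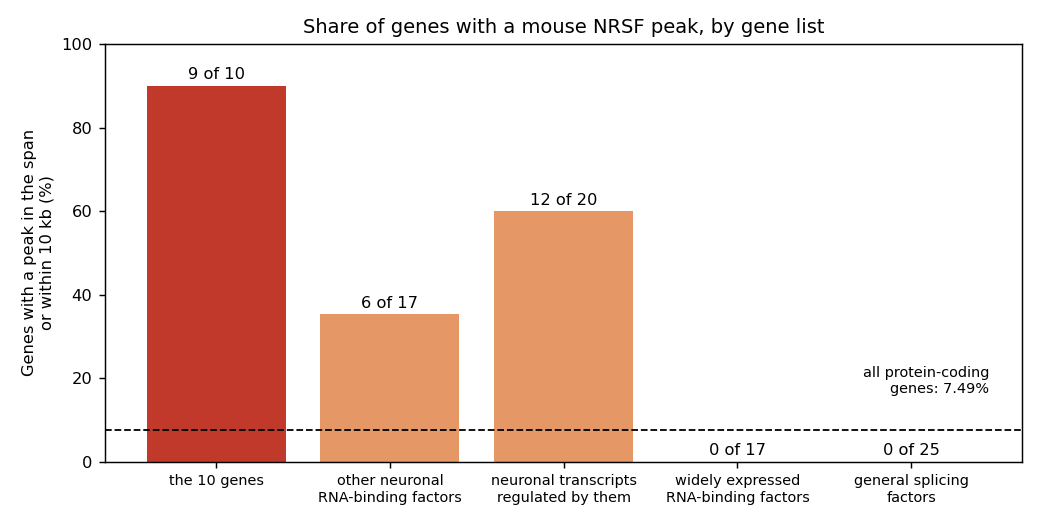
Percent of genes with an NRSF peak in the span or within 10 kb in each of 5 gene lists (bars, with counts above); the dashed line is the share over all protein-coding genes, 7.49%. The 10 genes stand at 9 of 10, and the widely expressed RNA-binding factors and general splicing factors at 0 of 17 and 0 of 25.

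Measured as the distance from the closer gene end to the closest peak, the median of the 10 genes was 1.48 kb, with a range of 0.168 to 71.5 kb. Over all protein-coding genes the median was 299 kb. The other neuronal RNA-binding factors had a median of 236 kb, the widely expressed factors 256 kb and the general splicing factors 211 kb, all near that of all genes, and the regulated transcripts 47.6 kb. Elavl2 (20.4 kb) and Nova2 (13.7 kb) have larger values than their neighbours in the list because their peaks lie deep inside the gene, where the distance to an end is long.

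**Figure D4:**
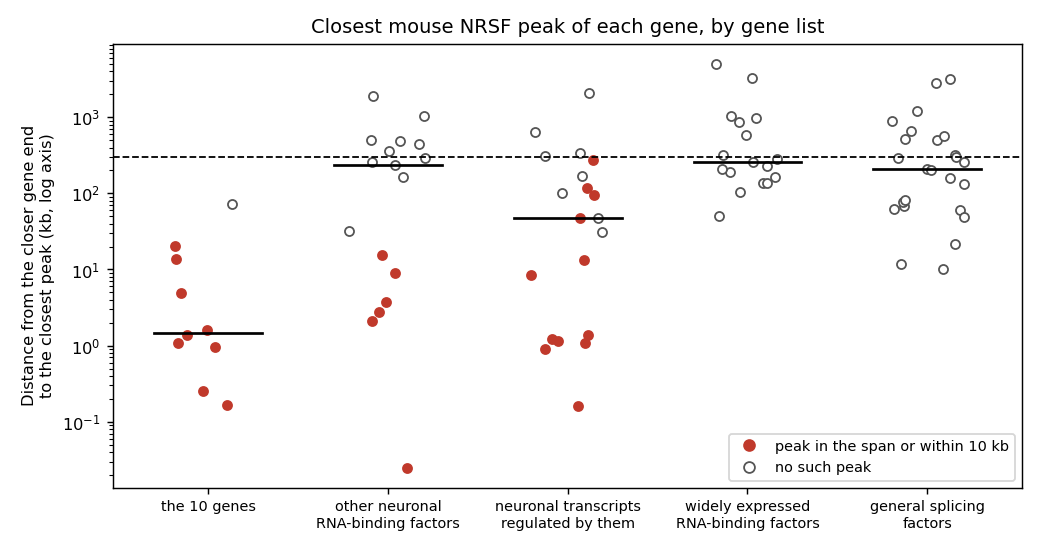
Distance in kb (log axis) from the closer end of each gene to the closest NRSF peak midpoint, with 1 point per gene in 5 lists; filled points have a peak in the span or within 10 kb, solid bars are list medians and the dashed line is the median of all protein-coding genes (299 kb). The 10 genes have a median of 1.48 kb, and Elavl4, at 71.5 kb, is their single open point.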

How the data were processed

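The values the authors deposited are peak positions (chromosome, start and end), 1 list for both mouse immunoprecipitated samples, with no score and no count of reads. Per the submitters' processing notes, Bowtie 0.12.8 and MACS 1.4.2 were used, with the build mm10; the peak threshold and the handling of replicates were not found in these sources. The other 3 lists were not analysed here. The mouse list was joined to a RefSeq gene table of GRCm38.p6 by peak midpoint, with a reach of 10 kb around each span. Strands and start sites came from the RefSeq start windows, which matched 9 of the 10 genes. All 89 listed genes matched a symbol. The 10 genes and the gene lists were chosen with earlier results of these data known. Named were the 10 genes, genes sharing their peaks, and in each other list at most 4 genes, those whose peak lay nearest to an end; some genes are not reported here. The counts of genes with several peaks, of close pairs of peaks and of peaks by distance to a start were added after the data were seen. No test was made, since there is 1 list and no value per replicate. The counting and the letter search were tested on simulated data. Alternatives were other reaches, any overlap, gene ends alone, 0-based starts, the nearest end alone, all genes and other mismatch limits. Python 3.11.15, numpy 2.4.6, pandas 2.3.3, scipy 1.17.1 and matplotlib 3.10.9 were used.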

Additional observations from a re-analysis of the deposited data

How the results depend on the processing

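The number of the 10 genes with a peak was 7 to 10 over the alternatives: 8 with spans alone (without Elavl4 and Nova1), 7 with gene ends within 10 kb alone (without Elavl4, Elavl2 and Nova2), 10 with every peak assigned to the single closest gene end, and 9 with a reach of 1, 5, 20 or 50 kb. The number of their peaks was 9 with gene ends alone, where Celf4 and Srrm4 keep 1 each and Elavl2 and Nova2 none, and 14 to 21 otherwise. The 0 widely expressed RNA-binding factors became 1 with a reach of 50 kb and 1 with the nearest end alone, and the 0 general splicing factors became 2 at 20 kb and 4 at 50 kb. The 12 regulated transcripts became 7 with gene ends alone. The share of protein-coding genes with a peak (7.49%, exact 95% interval 7.14 to 7.85%, counting error alone) was 4.43% with spans alone, 5.0%, 6.2%, 9.89% and 16.2% with reaches of 1, 5, 20 and 50 kb, 5.63% with gene ends alone, 8.49% with the nearest end alone and 5.01% over genes of any kind. By length class it was 5.95%, 8.84% and 14.6%. The joined element was found in 0.143% of start windows with at most 2 mismatches and in 9.91% with at most 4, then also in windows of Celf3 and Celf5. No paired analysis was possible because the mouse list has no value per replicate. The lists give no peak height or depth, so sites below the authors' threshold at Elavl4 or in the lists without a peak would not be seen.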
